A study of Mus musculus with 10 samples.

Results

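The 10 genes described here encode growth factor receptor tyrosine kinases other than the VEGF receptors. They were taken by name: Fgfr1, Fgfr2, Fgfr3, Met, Axl, Egfr, Erbb2, Erbb3, Igf1r and Insr, 10 of the 24538 genes counted. All 10 had counts in at least 1 library. Of these, 9 passed the filter on low counts and entered the test, and Erbb3 did not. Their transcripts were compared between cells sorted from lung metastases and cells sorted from normal lung of wild type C57BL6/J mice, with 5 libraries a group. The metastases grew from a mouse mammary tumour line, E0771-LG, given by tail vein to females aged 6 to 8 weeks. Nodules under 1 mm were cut out and those of 2 to 4 mice were pooled, and normal lungs were processed alongside. The age label is 8 to 10 weeks in both groups, and the labels do not say whether the mice that gave normal lung were injected or pooled. In both groups live cells positive for CD31, an endothelial adhesion molecule, and negative for CD45, a leukocyte surface protein, were sorted after digestion for 30 min at 37 °C with inhibitors of transcription in the buffer.

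Receptor tyrosine kinases sit in the cell membrane, bind a secreted or matrix-bound ligand outside the cell, pair up and phosphorylate each other on tyrosines inside it. Adaptor proteins dock on those tyrosines and pass the signal on to the ERK and PI3K pathways, which drive growth, survival and migration, while phosphatases, ubiquitin ligases and feedback inhibitors switch it off. In endothelium these receptors act beside the VEGF receptors: FGF and HGF are angiogenic ligands, and insulin and IGF receptors serve metabolism and nitric oxide production.

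Promoter sequences are shown for Met, Axl, Egfr and Fgfr2, the members whose metastasis and normal lung libraries did not overlap. Each is the window listed in the RefSeq promoter table on GRCm38.p6, 250 bases before to 50 after the start that table uses, written 5′ to 3′ on the gene's strand. For Egfr and Fgfr2 that start is the 5′ end of the RefSeq gene, while for Met and Axl it lies inside the gene's span given below, downstream of its 5′ end. Capitals mark GGGCGG, the core of the GC box bound by SP1 family factors, on either strand, so CCGCCC in capitals is the same motif on the other strand.

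Met promoter, chr6:17463707-17464006, plus strand: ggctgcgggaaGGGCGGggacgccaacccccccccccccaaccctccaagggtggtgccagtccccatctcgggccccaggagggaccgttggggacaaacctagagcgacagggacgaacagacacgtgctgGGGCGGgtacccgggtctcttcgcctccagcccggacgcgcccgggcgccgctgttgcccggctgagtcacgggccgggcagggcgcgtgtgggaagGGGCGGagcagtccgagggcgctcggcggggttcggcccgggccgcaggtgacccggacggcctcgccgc
Axl promoter, chr7:25788684-25788983, minus strand: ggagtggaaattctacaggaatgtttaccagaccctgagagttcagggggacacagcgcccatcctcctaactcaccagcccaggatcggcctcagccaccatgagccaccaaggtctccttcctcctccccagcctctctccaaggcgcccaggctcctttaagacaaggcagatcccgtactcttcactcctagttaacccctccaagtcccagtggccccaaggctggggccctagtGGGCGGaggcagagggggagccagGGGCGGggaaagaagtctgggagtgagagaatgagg
Egfr promoter, chr11:16751953-16752252, plus strand: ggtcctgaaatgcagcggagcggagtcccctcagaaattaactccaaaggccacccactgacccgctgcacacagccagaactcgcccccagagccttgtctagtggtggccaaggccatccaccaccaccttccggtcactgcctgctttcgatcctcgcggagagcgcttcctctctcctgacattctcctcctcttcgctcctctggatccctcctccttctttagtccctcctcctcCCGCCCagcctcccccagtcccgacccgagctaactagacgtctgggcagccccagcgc
Fgfr2 promoter, chr7:130266759-130267058, minus strand: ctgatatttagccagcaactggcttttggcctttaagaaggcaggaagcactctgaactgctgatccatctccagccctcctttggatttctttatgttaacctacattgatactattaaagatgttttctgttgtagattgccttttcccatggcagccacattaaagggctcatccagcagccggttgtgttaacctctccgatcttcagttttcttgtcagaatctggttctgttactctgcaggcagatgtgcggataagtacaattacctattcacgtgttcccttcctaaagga

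GGGCGG occurred 3 times in the Met window, 2 times in the Axl window, 1 time in the Egfr window and 0 times in the Fgfr2 window. Of the 32851 RefSeq promoter windows of the same length, 35.7% held it. The GC content was 75.7% for Met, 60.3% for Axl, 62.3% for Egfr and 43.7% for Fgfr2, against a median of 52.7% over all windows. The AP-1 motif TGANTCA, found in 7.81% of all windows, occurred 1 time in the Met window, and the E-box CACGTG, found in 7.15%, occurred 1 time each in the Met and Fgfr2 windows. CCGGAA, an ETS motif held by 14.9% of windows, occurred 1 time in the Egfr window, and the forkhead motif TGTTTAC, held by 3.65%, occurred 1 time in the Axl window. Each motif was searched on both strands, and each match is a description of the letters alone. The RefSeq table matched 7 of the 10 members.

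Gene counts came to 21.7 to 54.3 M per metastasis library and 41.0 to 79.7 M per normal lung library. Levels below are CPM, the gene's count relative to all gene counts of its library after TMM scaling, which corrects for differences in RNA composition between libraries. The share of the ribosomal precursor Rn45s was 0.647 to 4.61% in metastases and 0.408 to 3.51% in normal lung, with normal libraries 1 and 2 at 3.51 and 2.83% and normal libraries 3 to 5 under 0.5%. Libraries 1 and 2 were therefore also compared apart from libraries 3 to 5. This split follows normal lung: metastases 1 to 5 stood at 1.45, 4.61, 0.647, 1.04 and 1.24%, with metastasis 1 close to metastases 4 and 5. Summed CPM of 19 pan-endothelial genes was 1347 to 10240 in metastases, against 15300 to 29590 in normal lung. Of the 19, 16 were called lower, beside 8.22% of all tested genes. Cdh5, the most abundant of them and the gene of the endothelial cadherin, had 304 to 2342 CPM in metastases and 3845 to 9410 CPM in normal lung. The metastasis libraries' pan-endothelial level, in the order of replicates 1 to 5, was 39.1, 22.4, 19.3, 8.66 and 6.26% of the normal lung mean. Scaling the libraries to these 19 genes raises the median log2 fold change of all tested genes by 2.72, so directions below are relative to the bulk of genes unless that scaling is named.

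Sums of fibroblast, macrophage and other leukocyte markers were higher in the same metastasis libraries, and sums for lung epithelium and for pericytes and smooth muscle overlapped between the groups. Calls in each marker list stand beside 12.0% of all tested genes called higher and 8.22% called lower. Summed CPM over 10 fibroblast genes was 486 to 2398 in metastases and 46.6 to 89.8 in normal lung, with 6 of the 7 tested called higher and Tcf21 at 0 in both groups. The sum over 10 macrophage genes was 978 to 1784 in metastases and 46.6 to 211 in normal lung, with 4 of 7 called higher. Other leukocyte genes summed to 106 to 208 CPM in metastases and 8.33 to 33.4 CPM in normal lung, with 2 of 4 called higher. Ptprc alone had 84.0 to 154 CPM in metastases, and 7 of the 10 genes had a median below 1 CPM there. The 12 general and mammary epithelial genes summed to 10.1 to 58.7 CPM in metastases and 1.15 to 13.4 CPM in normal lung, with 1 of 2 called higher. Krt8, the most abundant of them and the one called, had 4.62 to 42.2 CPM in metastases and 0.162 to 0.339 CPM in normal lung, without overlap. Krt5 and Cldn3 were at 0 in both groups, and 10 of the 12 genes had a median below 1 CPM in metastases. Lung epithelial genes summed to 40.3 to 208 CPM in metastases and 98.2 to 862 CPM in normal lung, with 1 of 7 called higher and 2 lower. Scgb1a1 alone ran from 3.57 to 752 CPM in normal lung. Pericyte and smooth muscle genes summed to 12.7 to 102 CPM in metastases and 11.8 to 63.0 CPM in normal lung, with 0 of 5 called higher and 1 lower. Mesothelial genes summed to 0.546 to 43.6 CPM in metastases and 0.108 to 2.39 CPM in normal lung, and the 1 tested was not called. Platelet genes reached 670 to 12110 CPM in metastases and 182 to 885 CPM in normal lung, and 10 proliferation genes 1665 to 3066 CPM and 55.5 to 175 CPM. Most of the platelet sum was Ppbp, at 660 to 11950 CPM in metastases and 170 to 810 CPM in normal lung. In RNA from sorted pools, fewer cells of a type and less RNA per cell cannot be told apart. The part of these marker differences in the receptor results was not tested.

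Met, Egfr, Axl and Fgfr1 rose in metastases, Fgfr2 fell, and Fgfr3, Erbb2, Igf1r and Insr passed the test in neither direction. Calls are at an adjusted p under 0.05 in edgeR's quasi-likelihood F test with Benjamini-Hochberg adjustment over 11823 tested genes. The 5 calls among 9 tested members stand beside 20.2% of all tested genes called, the 4 higher calls beside 12.0% called higher, and the 1 lower call beside 8.22% called lower. Groups did not overlap in 4 of the 9, higher in metastases for Met, Axl and Egfr and lower for Fgfr2, beside 14.7% of all tested genes, 8.5% higher and 6.17% lower. The median log2 fold change over the 9 was -0.65, against 0.06 over all tested genes. Because the receptors were chosen with earlier results of these data known, these shares are a description. P-values here measure the spread between these libraries, since the labels do not say that each normal lung library came from its own mouse.

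**Figure D1:**
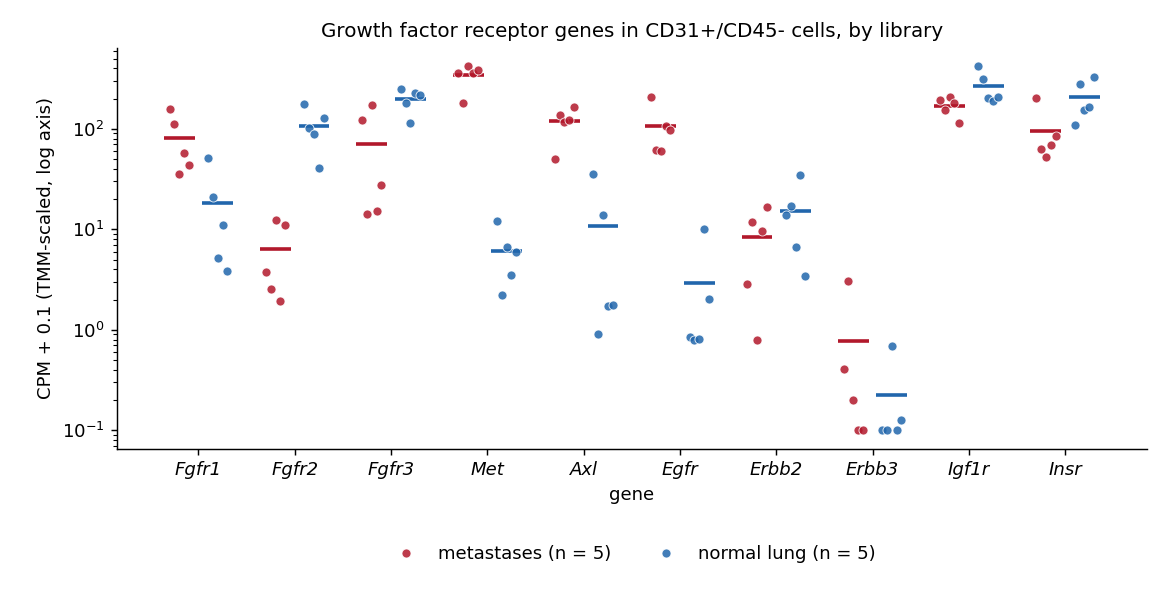
Levels of the 10 receptor genes in each library as CPM plus 0.1 on a log axis, metastases (red, n = 5) left of normal lung (blue, n = 5); bars are the group means. Met, Axl and Egfr lie higher in each metastasis library than in each normal lung library, Fgfr2 lies lower in each, and the groups overlap for the other members, with Erbb3 at or under 2.97 CPM throughout.

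Met, the receptor of hepatocyte growth factor (chromosome 6, 17463349 to 17573980; this and later positions are those of RefSeq genes on GRCm38.p6), had the largest log2 fold change of the 9 tested members. It had 357, 180, 418, 363 and 384 CPM in metastases 1 to 5, against 11.9, 2.13, 6.61, 3.44 and 5.81 CPM in normal lung 1 to 5. Metastasis 2 was the low library of its group, and its level was still above that of each normal lung library. The means were 340 ± 92.5 CPM in metastases and 5.99 ± 3.78 CPM in normal lung (SD, n = 5 each), a 56.8-fold higher level (log2 fold change 5.83 ± 0.56 SE, edgeR adjusted p = 1.29e-07). In metastases 4 and 5, the libraries with the lowest pan-endothelial level, Met was at 363 and 384 CPM. Met was called higher under all 26 other settings, at 5.28 on the log2 scale within libraries 1 and 2 and at 6.18 within libraries 3 to 5.

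Axl, a TAM family receptor that binds Gas6 and takes part in the clearance of dying cells (chromosome 7, 25756500 to 25788924), rose 11.03-fold in metastases. Its levels were 50.5, 136, 117, 123 and 164 CPM in metastases 1 to 5 and 35.6, 0.813, 13.8, 1.64 and 1.67 CPM in normal lung 1 to 5. Metastasis 1 was the lowest of its group and normal lung 1 the highest of its own, so the groups came closest in the libraries numbered 1. The group means were 118 ± 42.0 CPM and 10.7 ± 14.9 CPM (SD over 5 libraries each; log2 fold change 3.46 ± 0.87 SE, edgeR adjusted p = 0.00592). Without normal lung 1 the log2 fold change of Axl was 4.68. Within libraries 1 and 2 it was 2.39 and not called (edgeR adjusted p = 0.275), and within libraries 3 to 5 it was 4.54 (0.0078).

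Egfr, the receptor of EGF, amphiregulin and epiregulin (chromosome 11, 16752203 to 16913907), rose 37.6-fold in metastases. It had 206, 61.9, 59.6, 107 and 96.3 CPM in metastases 1 to 5, against 0.750, 0.693, 0.706, 10.0 and 1.94 CPM in normal lung 1 to 5. Metastasis 1 was the highest library, and normal lung 4 stood above the other normal lung libraries without reaching any metastasis. The means were 106 ± 59.7 CPM in metastases and 2.83 ± 4.07 CPM in normal lung (SD over 5 libraries each; log2 fold change 5.23 ± 0.89 SE, edgeR adjusted p = 0.000198). Leaving out normal lung 4 raised the log2 fold change to 6.67, above the 5.65 of Met, and in libraries 1 and 2 alone it was 7.55, against 5.28 for Met. Egfr was called higher under all 26 other settings.

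The lowest normal lung levels of these receptors were small shares of their metastasis means. The lowest normal library stood at 0.625% of the metastasis mean for Met, 0.688% for Axl and 0.653% for Egfr. Over the 2205 genes of at least 100 CPM in metastases, the 1st percentile of that measure was 0.653% and the median 39.0%. With that 1st percentile share of the other libraries' level subtracted from the counts, the log2 fold changes were 6.17 for Met, 3.54 for Axl and 5.45 for Egfr, and all 3 were called (edgeR adjusted p = 7.25e-07, 0.0111 and 0.000665). The subtraction takes relatively more from libraries with a low level. It therefore enlarges such differences and is no independent check of them.

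Erbb2 and Erbb3 are the partners of Egfr: Erbb2 has no ligand of its own and Erbb3 has little kinase activity, and both signal as heterodimers. Erbb2 (chromosome 11, 98412484 to 98437716) had 2.74, 11.7, 0.695, 9.55 and 16.4 CPM in metastases 1 to 5 and 13.9, 16.9, 6.52, 34.3 and 3.32 CPM in normal lung 1 to 5. The groups overlapped, and metastasis 5 was above 3 of the normal lung libraries. The means were 8.21 ± 6.47 CPM and 15.0 ± 12.1 CPM (SD, n = 5 each), with a log2 fold change of -0.87 ± 1.03 SE (edgeR adjusted p = 0.622), which turned to 2.27 when libraries were scaled to the pan-endothelial genes. Erbb3 (chromosome 10, 128567523 to 128589635) had 9, 194, 2, 0 and 0 counts in metastases 1 to 5 and 0, 0, 25, 0 and 1 counts in normal lung 1 to 5. Metastasis 2 held most of the Erbb3 counts of its group and normal lung 3 most of the other, and no test was made. Where Erbb3 was at 0, a limit of 3 counts allows up to 0.106 CPM in metastases and 0.0782 CPM in normal lung after TMM scaling, counting error only.

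The FGF receptors moved apart from each other. Fgfr1 (chromosome 8, 25518759 to 25575718), the main FGF receptor of mesenchymal cells and of cultured endothelium, had 156, 111, 35.2, 57.0 and 43.2 CPM in metastases 1 to 5 and 50.9, 20.9, 5.04, 10.8 and 3.78 CPM in normal lung 1 to 5. Libraries 1 and 2 were the high libraries of normal lung and metastases alike, and normal lung 1 lay above metastases 3 and 5. Fgfr1 averaged 80.4 ± 51.4 CPM in metastases and 18.3 ± 19.5 CPM in normal lung (SD, n = 5 each) and rose 4.39-fold (log2 fold change 2.13 ± 0.76 SE, edgeR adjusted p = 0.0477). That call lies at the threshold: it was lost without any 1 of 7 libraries (metastases 1, 2 and 4 and normal lung 2 to 5; edgeR adjusted p = 0.0513 to 0.131), and the log2 fold change was 2.95 without normal lung 1. With the small share of other libraries' counts subtracted it was 2.17 (edgeR adjusted p = 0.0537), and in libraries 1 and 2 or 3 to 5 alone 1.91 and 2.77 (0.244 and 0.0555).

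Fgfr2 (chromosome 7, 130162451 to 130266808) is known in lung for its epithelial isoform, the receptor of Fgf7 and Fgf10 in branching and alveolar repair. It fell to 3.62, 2.43, 12.4, 1.83 and 11.04 CPM in metastases 1 to 5, against 176, 102, 89.6, 40.2 and 127 CPM in normal lung 1 to 5. Each metastasis lay below each normal lung library, and normal lung 4 was the lowest of its group. The group means were 6.26 ± 5.03 CPM and 107 ± 49.99 CPM (SD, n = 5 each), a 17.1-fold lower level in metastases (log2 fold change -4.10 ± 0.74 SE, edgeR adjusted p = 0.000358). Scaled to the pan-endothelial genes the log2 fold change of Fgfr2 was -1.11 and not called (edgeR adjusted p = 0.318). It was -5.50 within libraries 1 and 2 and -3.37 within libraries 3 to 5, called in both. In the same libraries the summed lung epithelial markers were at 40.3 to 208 CPM in metastases and 98.2 to 862 CPM in normal lung. Scgb1a1 alone gave 752 of the 862 CPM in normal lung 3 and 558 of the 680 CPM in normal lung 5. The part of these markers in the Fgfr2 result was not tested.

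Fgfr3 (chromosome 5, 33721724 to 33737068), known for restraining the growth of cartilage, had 124, 14.0, 173, 15.1 and 27.4 CPM in metastases 1 to 5 and 249, 182, 113, 225 and 217 CPM in normal lung 1 to 5. Metastases 1 and 3 lay within the normal lung range, and the other 3 metastases were below all 5 normal lung libraries. Fgfr3 averaged 70.7 ± 73.4 CPM in metastases and 197 ± 52.5 CPM in normal lung (SD over 5 libraries each; log2 fold change -1.48 ± 0.61 SE, edgeR adjusted p = 0.0913). Fgfr3 was called lower without metastasis 3 (-2.13, edgeR adjusted p = 0.0141), with no filter on low counts (-1.53, 0.0485) and in both filtered limma fits of FPKM (-2.01 and -2.13, adjusted p = 0.0359 and 0.0367). With pan-endothelial scaling the direction turned (0.87, edgeR adjusted p = 0.287).

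Igf1r and Insr, the receptors of IGF-1 and insulin, had no call in either direction. Igf1r (chromosome 7, 67952257 to 68233668) had 194, 153, 208, 180 and 114 CPM in metastases 1 to 5, against 421, 315, 201, 188 and 208 CPM in normal lung 1 to 5. Normal lung 1 and 2 were the high libraries, and the other 3 lay within or close to the metastases' range. The means were 170 ± 37.0 CPM in metastases and 267 ± 100 CPM in normal lung (SD over 5 libraries each; log2 fold change -0.65 ± 0.39 SE, edgeR adjusted p = 0.267). Scaled to the pan-endothelial genes, Igf1r was called higher in metastases (2.15, edgeR adjusted p = 0.00286).

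Insr (chromosome 8, 3150922 to 3279649) had 202, 63.0, 52.1, 68.2 and 85.4 CPM in metastases 1 to 5 and 109, 279, 152, 165 and 328 CPM in normal lung 1 to 5. Metastasis 1 stood above the other 4 metastases, and each of those 4 lay below each normal lung library. Insr averaged 94.2 ± 61.7 CPM in metastases and 207 ± 92.4 CPM in normal lung (SD over 5 libraries each; log2 fold change -1.13 ± 0.48 SE, edgeR adjusted p = 0.0997). Without metastasis 1 it was called lower (-1.65, edgeR adjusted p = 0.0139), while scaling to the pan-endothelial genes turned the direction (1.36, 0.0722).

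**Figure D2:**
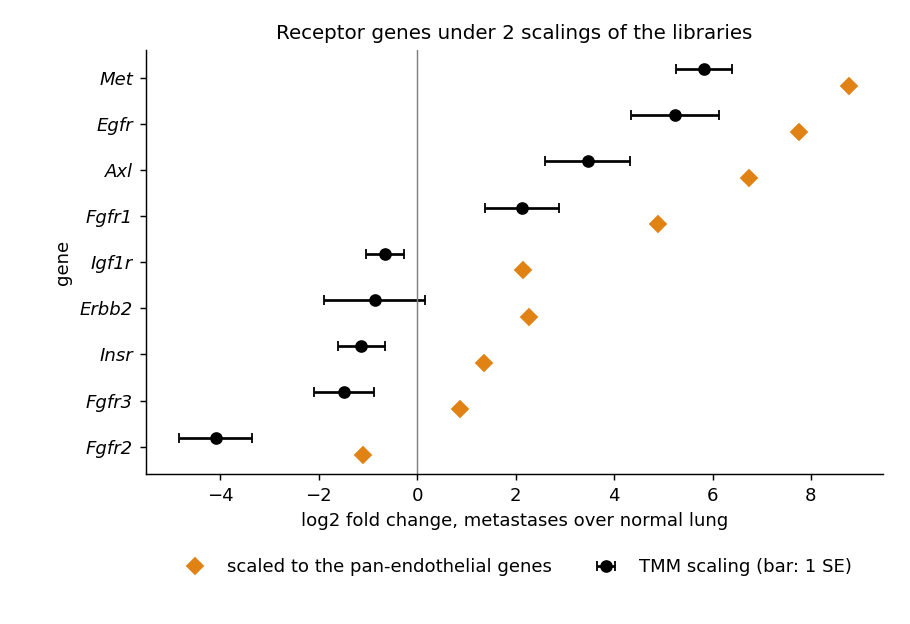
Log2 fold change, metastases over normal lung, of the 9 tested receptors with TMM scaling (black circles, bars 1 SE) and after pan-endothelial scaling (orange diamonds). Met, Egfr, Axl and Fgfr1 lie above 0 under both scalings, Fgfr2 below 0 under both, and Igf1r, Erbb2, Insr and Fgfr3 turn from below 0 to 2.15, 2.27, 1.36 and 0.87.

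Levels of different genes were compared as FPKM, the authors' fragment values scaled by transcript length and library size. In metastases the mean FPKM ran from Met at 43.3 ± 15.3 through Axl at 27.5 ± 10.3, Fgfr3 at 26.1 ± 29.7, Fgfr1 at 23.4 ± 14.4, Egfr at 19.1 ± 9.10 and Igf1r at 15.9 ± 5.37 to Insr at 8.84 ± 5.98 (SD, n = 5). Neighbours in this order were not separated, since none lay above the next in all 5 libraries. Below them stood Erbb2 at 2.35 ± 1.77 FPKM, under Insr in all 5 metastases, Fgfr2 at 1.49 ± 1.28 and Erbb3 at 0.200 ± 0.314.

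In normal lung Fgfr3 came first at 63.1 ± 18.8 FPKM, above the next gene in all 5 libraries. Igf1r at 25.4 ± 7.77, Fgfr2 at 24.8 ± 11.02 and Insr at 19.6 ± 9.08 FPKM followed and were not separated from each other. Below Insr in each normal library stood Erbb2 at 5.02 ± 4.35 FPKM, and after it Fgfr1 at 4.84 ± 4.52, Axl at 2.92 ± 3.59, Met at 0.859 ± 0.479, Egfr at 0.581 ± 0.871 and Erbb3 at 0.0631 ± 0.141, none separated from its neighbour. Met was thus in place 1 of the order in metastases and in place 8 in normal lung.

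The summed FPKM of the 10 receptors was 168 ± 58.7 in metastases and 147 ± 26.8 in normal lung (SD, n = 5 each), with overlapping ranges of 101 to 235 and 110 to 176. Met, Axl, Egfr and Fgfr1 together made up 63.8, 75.6, 55.7, 77.6 and 76.6% of it in metastases 1 to 5, against 12.6, 4.29, 7.44, 4.50 and 1.89% in normal lung 1 to 5. Igf1r, Insr, Fgfr2 and Fgfr3 made up 19.97 to 44.2% in metastases and 85.5 to 97.2% in normal lung. Metastasis 3 had the lowest share of the 4 higher receptors in its group, and Fgfr3 alone was 30.2% of its sum. These 4 receptors were grouped by their calls, so the shares are a description.

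**Figure D3:**
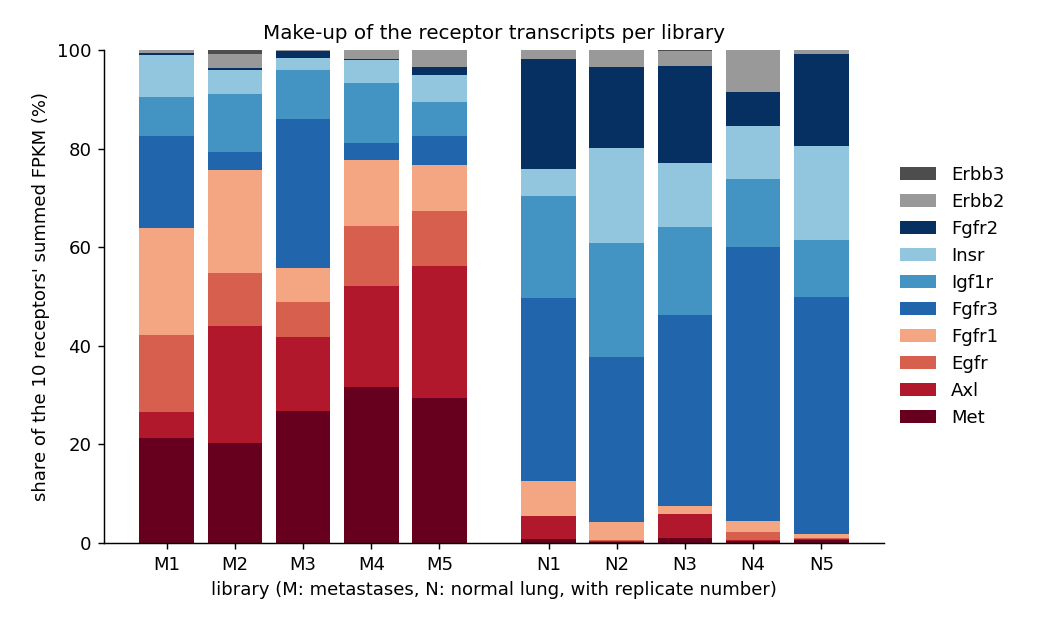
Share of each receptor in the summed FPKM of the 10 receptors (percent, stacked bars), for metastases 1 to 5 (M1 to M5) left of normal lung 1 to 5 (N1 to N5). Met, Axl, Egfr and Fgfr1 (red tones) fill 55.7 to 77.6% of the metastasis bars and 1.89 to 12.6% of the normal lung bars, and Fgfr3 is the widest band of each normal lung bar.

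Ratios between 2 receptors of a library do not depend on how libraries are scaled. The log2 ratio of counts, with 0.5 added to each, was compared for 8 pairs by a two-sided exact permutation test over the 252 splits of 5 against 5, whose smallest p is 0.00794, with Benjamini-Hochberg adjustment over the 8. Fgfr1 to Fgfr2 was 5.42, 5.50, 1.51, 4.95 and 1.97 in metastases 1 to 5 and -1.79, -2.28, -4.15, -1.89 and -5.07 in normal lung 1 to 5. Each metastasis held more Fgfr1 than Fgfr2 counts and each normal lung library more Fgfr2 than Fgfr1. The means differed by 6.91 on the log2 scale (exact permutation p = 0.00794, adjusted 0.0317).

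Fgfr1 to Fgfr3 had log2 ratios of -2.30 to 2.99 in metastases and -5.83 to -2.29 in normal lung, and the difference of the means was 4.74 (exact permutation p = 0.0159, adjusted 0.0317). Metastasis 3 alone overlapped with normal lung. The log2 ratio of Fgfr2 to Fgfr3 ran from -5.09 to -1.31 in metastases and from -2.48 to -0.34 in normal lung, a difference of -2.17 (exact permutation p = 0.0159, adjusted 0.0317). The call for Fgfr1 to Fgfr3 was lost without normal lung 2, 3 or 5 (exact permutation adjusted p = 0.0635). That for Fgfr2 to Fgfr3 was lost without normal lung 1, 2, 3 or 5 or metastasis 1, 3 or 4 (exact permutation adjusted p up to 0.0794).

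Egfr to Erbb2 was 6.23, 2.41, 6.37, 3.48 and 2.55 in metastases 1 to 5 and -4.20, -4.60, -3.19, -1.77 and -0.77 in normal lung 1 to 5 on the log2 scale. Egfr counts exceeded Erbb2 counts in each metastasis and fell short of them in each normal lung library. The difference of the means was 7.11 (exact permutation p = 0.00794, adjusted 0.0317). The log2 ratio of Egfr to Erbb3 averaged 9.57 ± 3.40 in metastases and 5.79 ± 3.43 in normal lung (SD, n = 5 each; difference 3.79, exact permutation p = 0.119, adjusted 0.19), and with Erbb3 near 0 counts it depends on the number added: the adjusted p was 0.0254 with 5 added to each count.

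For Igf1r to Insr the log2 ratio averaged 1.01 ± 0.82 in metastases and 0.41 ± 0.95 in normal lung (SD, n = 5 each), a difference of 0.60 (exact permutation p = 0.317, adjusted 0.317). Axl to Met averaged -1.57 ± 0.88 in metastases and -0.32 ± 1.53 in normal lung, a difference of -1.25 (exact permutation p = 0.175, adjusted 0.233). Erbb2 to Erbb3 averaged 5.37 ± 3.90 in metastases and 8.69 ± 3.62 in normal lung, a difference of -3.33 (exact permutation p = 0.206, adjusted 0.236). In these 3 pairs the groups overlapped, and the difference between them was within the spread of the libraries.

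**Figure D4:**
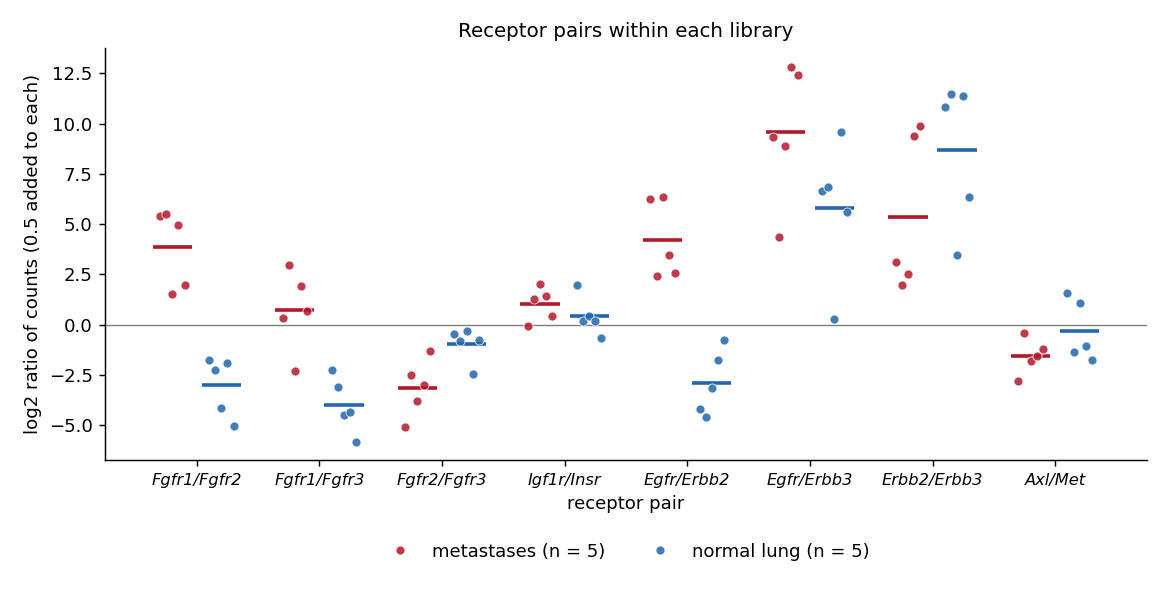
Log2 ratio of the counts of 2 receptors in each library (0.5 added to each count) for 8 pairs, metastases (red, n = 5) left of normal lung (blue, n = 5); bars are the means and the grey line marks equal counts. The groups do not overlap for Fgfr1/Fgfr2, at 1.51 to 5.50 in metastases and -5.07 to -1.79 in normal lung, nor for Egfr/Erbb2, at 2.41 to 6.37 and -4.60 to -0.77.

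The genes whose pattern over the 10 libraries was most like each called receptor were found by the root mean square distance of centred log2 CPM. This distance includes the step between the groups, so genes of similar fold change tend to lie close. For Met these were Dbf4 at 0.58, Asph at 0.60 and Ank2 at 0.65. Axl had Ncapg2 at 0.88, Myof at 0.93 and Ckap2l at 0.99, and Egfr had Top2a at 0.54, Scpep1 at 0.60 and Csf3r at 0.61. Fgfr1 had B4galt5 at 0.39, G6pdx at 0.57 and Nomo1 at 0.61, and Fgfr2 had C2cd2l at 0.62, Gpr155 at 0.73 and Map9 at 0.76. Among the members themselves, the closest were Igf1r and Insr at 0.85. Top2a, a topoisomerase of dividing cells, is among the 10 proliferation genes summed above. Its log2 fold change was 5.61, near the 5.23 of Egfr.

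Of 8 other receptors of the same families 2 were tested, and Fgfr4 was at 0 in every library. Mertk, the TAM receptor that clears dying cells, fell 9.24-fold in metastases, with 35.8, 47.9, 64.5, 35.4 and 56.8 CPM in metastases 1 to 5 and 482, 375, 364, 489 and 510.5 CPM in normal lung 1 to 5. The groups lay far apart and were each narrow (log2 fold change -3.21 ± 0.40 SE, edgeR adjusted p = 4.37e-06), and with pan-endothelial scaling Mertk was at -0.41 and not called (0.573). Mertk and Axl thus had opposite directions among the TAM receptors, while Tyro3 was too low to be tested. Igf2r, which clears IGF-2, had no call (0.67 ± 0.62 SE, edgeR adjusted p = 0.507).

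Ligands of the ErbB receptors were among the genes that rose. Of 11 such genes 4 were tested and 3 were called higher, beside 12.0% of all tested genes. The median log2 fold change over the 4 was 5.03. Areg, amphiregulin, had 27.4, 83.8, 171, 108 and 93.4 CPM in metastases 1 to 5 and 0.658, 0.813, 0.965, 0.574 and 0.918 CPM in normal lung 1 to 5. Ereg, epiregulin, had 137, 71.3, 99.9, 142 and 141 CPM in metastases 1 to 5 and 0.796, 0.681, 1.25, 1.46 and 1.43 CPM in normal lung 1 to 5. Neither gene's groups overlapped. Areg rose 122.7-fold (log2 fold change 6.94 ± 0.80 SE, edgeR adjusted p = 1.57e-06) and Ereg 105-fold (6.72 ± 0.71, 4.23e-07), and both were called under all 26 other settings.

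As for Egfr, the lowest normal library stood at a small share of the metastasis mean, 0.593% for Areg and 0.577% for Ereg. With the small share subtracted both were called, but the subtraction enlarges such differences and is no independent check. Hbegf, heparin-binding EGF-like growth factor, averaged 24.1 ± 19.3 CPM in metastases and 2.35 ± 3.20 CPM in normal lung (SD over 5 libraries each; log2 fold change 3.35 ± 1.19 SE, edgeR adjusted p = 0.0477). Metastasis 1 was at 0.508 CPM, within the normal lung range. The Hbegf call was lost without any 1 of 7 libraries (metastases 2, 3 and 5 and normal lung 2 to 5; edgeR adjusted p up to 0.104), and it was 4.66 without normal lung 1. Nrg4, a ligand of Erbb4, was at 3.30 ± 1.40 SE with no call (edgeR adjusted p = 0.101), and Erbb4 had counts in metastasis 5 alone.

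Of 8 genes of HGF, its activation and the TAM ligands 3 were tested and none was called, beside 20.2% of all tested genes. St14, a membrane protease that activates HGF, did not pass the filter, with 0.102, 24.9, 0.496, 17.5 and 2.93 CPM in metastases 1 to 5 and 0.0471 to 0.179 CPM in normal lung. It was tested under 12 other settings, with another filter, no filter or fewer libraries, and was called higher in 10 of them. Where a filter was used, St14 passed it mostly through the metastasis libraries in which it was high. Those calls are therefore no support for a rise, and metastasis 1 lay within the normal lung range. Mst1, also kept out by the main filter, was called higher by DESeq2 alone (4.54, adjusted p = 0.00622). Hgf had 22.3, 0.214, 0.794, 0.813 and 1.80 CPM in metastases 1 to 5 and 11.2, 34.1, 23.1, 19.4 and 32.6 CPM in normal lung 1 to 5. Metastasis 1 lay within the normal lung range and the other 4 metastases below it (log2 fold change -2.22 ± 1.13 SE, edgeR adjusted p = 0.184). Without metastasis 1, Hgf was called lower (-4.76, edgeR adjusted p = 0.00421). Pros1, protein S, averaged 154 ± 60.2 CPM in metastases and 242 ± 85.1 CPM in normal lung (log2 fold change -0.65 ± 0.41 SE, edgeR adjusted p = 0.298), a direction that turned to 1.93 with pan-endothelial scaling. Gas6 had no call (-1.19 ± 1.54 SE, edgeR adjusted p = 0.652).

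Of 19 FGF genes 10 were at 0 in every library and 2 were tested. Fgf1, which binds all FGF receptors, fell 4.57-fold, with 171, 49.3, 145, 45.2 and 15.7 CPM in metastases 1 to 5 and 408, 299.6, 464, 337 and 441 CPM in normal lung 1 to 5. The groups did not overlap (log2 fold change -2.19 ± 0.51 SE, edgeR adjusted p = 0.00337), but with pan-endothelial scaling Fgf1 was at 0.06. Fgf11, an intracellular member that does not act through the receptors, was at 0.34 ± 1.22 SE with no call (edgeR adjusted p = 0.886).

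Of 9 genes of IGF ligands and binding proteins 6 were tested, and 1 rose and 1 fell, beside 12.0% and 8.22% of all tested genes. Igf1 had 15.9, 7.24, 145, 18.9 and 17.2 CPM in metastases 1 to 5 and 1.79, 3.97, 6.23, 1.49 and 2.54 CPM in normal lung 1 to 5 (log2 fold change 3.67 ± 1.00 SE, edgeR adjusted p = 0.0108). Metastasis 3 was far above the rest, and without it the Igf1 call was lost (2.19, edgeR adjusted p = 0.154). Igfbp7, an endothelial IGF-binding protein, fell 5.12-fold to 392 ± 258 CPM in metastases, against 2006 ± 605 CPM in normal lung (SD, n = 5 each; -2.36 ± 0.43 SE, edgeR adjusted p = 0.000373), and was at 0.10 with pan-endothelial scaling. Igfbp4 just missed the threshold (1.95 ± 0.72 SE, edgeR adjusted p = 0.0577) and was called under 12 of the 26 other settings, among them DESeq2 (2.00, adjusted p = 0.0146), RLE scaling (2.01, edgeR 0.0479) and without normal lung 2 (2.86, edgeR 0.0108).

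**Figure D5:**
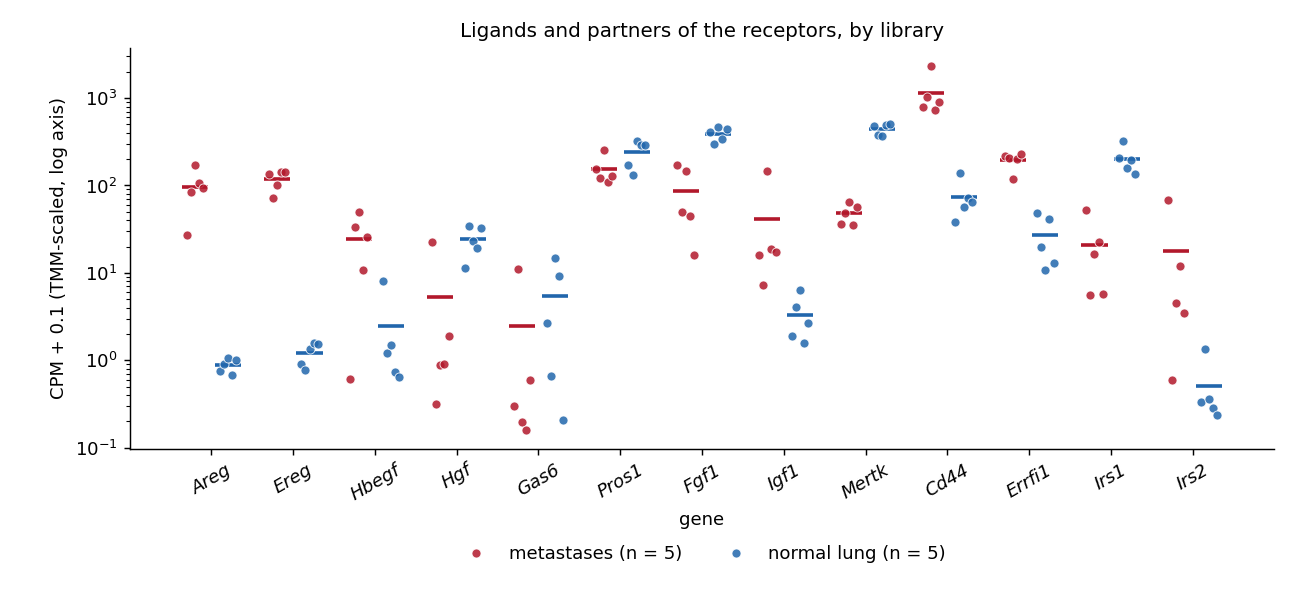
Levels of ligands and partners of the receptors in each library as CPM plus 0.1 on a log axis, metastases (red, n = 5) left of normal lung (blue, n = 5); bars are the group means. Areg, Ereg, Igf1, Cd44 and Errfi1 are higher in each metastasis than in each normal lung library, and Mertk, Fgf1 and Irs1 are lower, with Fgf1 at 0.06 when scaled to the pan-endothelial genes; the groups overlap for Hbegf, Hgf, Gas6, Pros1 and Irs2.

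Coreceptors hold ligands at the cell surface or join the receptor complex. Of 13 genes 7 were tested, with 3 higher and 1 lower, beside 12.0% and 8.22% of all tested genes. Cd44, a hyaluronan receptor that presents HGF to Met, rose 15.5-fold, with 725 to 2325 CPM in metastases and 37.9 to 139 CPM in normal lung (log2 fold change 3.96 ± 0.46 SE, edgeR adjusted p = 1.69e-06). The heparan sulphate proteoglycans Sdc1 and Sdc2, which bind FGF and HGF, rose 15.9-fold and 22.1-fold (3.99 ± 1.14 and 4.47 ± 1.09 SE, edgeR adjusted p = 0.0146 and 0.00468). Metastasis 3 was the lowest of its group for both, at 1.49 and 7.44 CPM, within normal lung ranges reaching 13.3 and 10.5 CPM. Their log2 fold changes were 5.84 without normal lung 5 for Sdc1 and 6.11 without normal lung 4 for Sdc2. The Sdc1 call was lost in libraries 1 and 2 alone, in 3 to 5 alone and without metastases 4 and 5 (edgeR adjusted p = 0.0746, 0.127 and 0.119). It was also lost in the unfiltered limma fit (adjusted p = 0.0581). The Sdc2 call was lost in libraries 3 to 5 alone (edgeR adjusted p = 0.0824). Nrp1, a semaphorin and VEGF coreceptor, fell to 717 ± 851 CPM in metastases, against 3284 ± 800 CPM in normal lung (SD, n = 5 each; -2.20 ± 0.54 SE, edgeR adjusted p = 0.00503), but was at 0.19 with pan-endothelial scaling. Without metastasis 3, where Nrp1 was at 2194 CPM, the log2 fold change was -3.26.

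Of 21 adaptors and other proximal signalling genes 19 were tested, with 1 higher and 4 lower, beside 12.0% and 8.22% of all tested genes. The insulin receptor substrates went opposite ways. Irs1 had 53.0, 5.42, 16.3, 22.5 and 5.68 CPM in metastases 1 to 5 and 205, 320.4, 159, 193 and 134 CPM in normal lung 1 to 5, with no overlap (log2 fold change -3.30 ± 0.62 SE, edgeR adjusted p = 0.000531; -4.05 without metastasis 1). Irs2 had 67.3, 0.490, 4.37, 11.9 and 3.39 CPM in metastases 1 to 5 and 0.230, 1.23, 0.259, 0.183 and 0.135 CPM in normal lung 1 to 5 (5.40 ± 1.44 SE, edgeR adjusted p = 0.00929). Metastasis 1 was the high library, and without it the Irs2 call was lost (3.59, edgeR adjusted p = 0.0983), while without normal lung 2 it was 6.40.

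Plcg1, the phospholipase recruited by FGF and VEGF receptors, fell to 15.2 ± 6.30 CPM in metastases, against 164 ± 71.5 CPM in normal lung (SD over 5 libraries each; log2 fold change -3.42 ± 0.57 SE, edgeR adjusted p = 0.000142). Grb14, an inhibitor of insulin receptor signalling, was called lower (-2.15 ± 0.71 SE, edgeR adjusted p = 0.0333), as was the PI3K subunit Pik3cb (-1.43 ± 0.48 SE, 0.0362), but with pan-endothelial scaling they stood at 0.06 and 0.84. The Grb14 call was lost without any 1 of 5 libraries (normal lung 3, 4 and 5 and metastases 4 and 5) and that of Pik3cb without any 1 of 8, all but normal lung 2 and metastasis 1, with edgeR adjusted p up to 0.0888. Without metastasis 1 they were at -2.91 and -2.18. Crk and Gab1, with the highest mean CPM of this list over all 10 libraries, had no call, with log2 fold changes of 0.62 ± 0.42 and 0.79 ± 0.46 SE (edgeR adjusted p = 0.328 and 0.254). Scaled to the pan-endothelial genes, Plcg1 was at -0.84 and Irs1 at -0.82, neither called.

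Of 20 negative regulators 19 were tested, with 4 higher and 1 lower, beside 12.0% and 8.22% of all tested genes. Errfi1, a feedback inhibitor that binds the Egfr kinase, had 216, 206, 120, 198 and 230 CPM in metastases 1 to 5 and 48.7, 19.8, 10.8, 41.5 and 12.8 CPM in normal lung 1 to 5. The groups did not overlap, and Errfi1 rose 7.26-fold (log2 fold change 2.86 ± 0.54 SE, edgeR adjusted p = 0.00054). Cblb, a ubiquitin ligase of activated receptors, rose 3.10-fold (1.63 ± 0.37 SE, edgeR adjusted p = 0.00266), the phosphatase Ptprj rose 6.10-fold (2.61 ± 0.63 SE, 0.0043) and Spred3, an inhibitor of ERK signalling, rose 5.34-fold (2.42 ± 0.73 SE, 0.02). Ptprj was at 3.34 without normal lung 2, and the Spred3 call was lost without normal lung 4 (edgeR adjusted p = 0.0512). Lrig2 was called lower (-1.87 ± 0.59 SE, edgeR adjusted p = 0.0261). The call failed without normal lung 1 or 3 (0.0596 and 0.0764), and the value turned to 1.20 with pan-endothelial scaling. Spred1, with the highest mean CPM of the Spred genes over all 10 libraries, had no call (0.75 ± 0.41 SE, edgeR adjusted p = 0.215).

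All 12 genes listed as targets of the ERK pathway were tested, with 4 higher and 1 lower, beside 12.0% and 8.22% of all tested genes. Their median log2 fold change was 1.06. Myc, a transcription factor of cell growth, had 264, 702, 1720, 812 and 904 CPM in metastases 1 to 5 and 9.28, 8.95, 8.59, 13.1 and 13.02 CPM in normal lung 1 to 5. It rose 83.2-fold without overlap (log2 fold change 6.38 ± 0.52 SE, edgeR adjusted p = 8.38e-09). Ier3 rose 4.15-fold (2.05 ± 0.53 SE, edgeR adjusted p = 0.00766), Etv1 5.33-fold (2.42 ± 0.76 SE, 0.0251) and Phlda1 2.45-fold (1.29 ± 0.43 SE, 0.0374). The Etv1 call was lost without any 1 of 4 libraries (normal lung 1, 2 and 4 and metastasis 3) and that of Phlda1 without any 1 of 8, all but normal lung 3 and metastasis 2, with edgeR adjusted p up to 0.105. Without normal lung 3, Etv1 was at 3.38. Egr1, an immediate early gene, was called lower (-1.70 ± 0.53 SE, edgeR adjusted p = 0.0235). The call failed without normal lung 1 or 2 or metastasis 4 (up to 0.0763), and the value turned to 0.92 with pan-endothelial scaling.

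Over all these lists, 71 of 118 genes were tested, and 16 were called higher and 10 lower, beside 12.0% and 8.22% of all tested genes. The median log2 fold change over the 71 was 0.62, against 0.06 over all tested genes. Because the lists were also chosen with earlier results known, these counts are a description. The lists hold ligands, partners and inhibitors together, and 3 ERK targets are also listed as negative regulators.

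Exons of Fgfr1, Fgfr3 and Erbb2 overlap those of Gm16159, G630022F23Rik and Mien1 on the opposite strand, and exons of Fgfr2 overlap Ctbp2 on the same strand, in the GENCODE M21 annotation. In that annotation Fgfr2 reaches 133123350, while the RefSeq gene given above reaches 130266808. Whether the Ctbp2 overlap lies within the RefSeq span was not examined. The sources used here do not say which annotation was counted or whether counting used the strand. Records that HTSeq marked as ambiguous made up 0.158 to 0.345% of each file and stayed out of the gene counts. Reads of overlapping exons could be among these if both genes were in the annotation used. If only the receptor was in it, such reads could be counted for the receptor.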

How the data were processed

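RNA of sorted CD31+/CD45- cells was sequenced as paired 100 bp reads from Ovation RNA-Seq V2 libraries, per the labels' protocols. The submitters' processing notes name mm10/GRCm38, HTSeq 0.6.1, TopHat2 2.0.13, DESeq2 1.6.3 and Cufflinks 2.2.1; the gene annotation and strand setting were not given in the sources used here. The authors deposited raw gene counts per library, and a table of FPKM for 24460 genes, used for levels between genes and as an alternative. Records assigned to genes made up 14.6 to 16.9% of metastasis files 1, 3, 4 and 5, 28.2% of metastasis 2 and 24.3 to 34.45% of normal lung files. Those in no feature made up 71.8 to 73.7%, 57.9% and 55.4 to 64.7%, in the same order. The part of this group difference in the results was not tested. Records in no feature stayed out of all totals. No libraries of a group were alike enough to be 1 library deposited in duplicate.

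Counts were fitted in R 4.3.3 with edgeR 4.0.16 (filterByExpr, TMM, robust quasi-likelihood F test, two-sided) over all 11823 genes that passed, with Benjamini-Hochberg adjustment and a threshold of 0.05. SE was taken as the size of the log2 fold change divided by the root of F. Common biological variation was 1.01. Scripts were tested on simulated data. Alternatives were DESeq2 1.42.0, RLE scaling, library totals, other filters, limma 3.58.1 on log2(FPKM + 1) and log2(FPKM + 0.1), a threshold of 0.01, a replicate block and leaving out each library. Added after seeing the data: libraries 1 and 2 as a term against 3 to 5, each of these sets alone, leaving out metastases 4 and 5, scaling to the pan-endothelial genes, and subtracting 0.653% of the other libraries' mean level. Figures used matplotlib 3.10.9 in Python 3.11.15. Counting limits cover counting error only.

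The receptors and gene lists were chosen with earlier results of these data known. From each list the text names all called genes where they number 5 or fewer, otherwise the 2 largest changes each way, and the 2 most abundant genes. Nrg4, Gas6, St14, Mst1, Fgfr4, Tyro3 and Erbb4 were named after their values were seen. The 3 genes most like a called receptor were taken among tested genes with a mean of at least 5 CPM and no predicted name. Positions are RefSeq GRCm38.p6, and exon overlaps GENCODE M21, which matched 98.2% of tested symbols.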

Additional observations from a re-analysis of the deposited data

Results flagged for a closer look

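In 56 groups of 5 values, covering the receptors, their pairs and the marker sums, 11 had 1 library set apart from the other 4 by more than Dixon's 95% limit. That limit flags about 1 in 20 groups of independent, normally distributed values. Most values here are CPM, some of them 0, and the groups share libraries, so the number of flags due to chance is not known. Among the receptors, Met was low in metastasis 2, at 180.2 CPM against 357 to 418 CPM in the other 4 metastases. Insr was high in metastasis 1, at 202.4 CPM against 52.1 to 85.4 CPM in the others. Egfr was high in normal lung 4, at 10.04 CPM against 0.693 to 1.94 CPM in the other 4 normal lung libraries. Erbb3 was high in metastasis 2, at 2.969 CPM, and in normal lung 3, at 0.5882 CPM. The log2 ratio of Fgfr2 to Fgfr3 was low in normal lung 4, at -2.482, against -0.84 to -0.34 in the others.

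Among the marker sums, metastasis 2 stood apart for fibroblast genes, at 2398 CPM, and for pericyte and smooth muscle genes, at 102.4 CPM. Metastasis 1 stood apart for platelet genes, at 12110 CPM, as did normal lung 2, at 885.3 CPM. Mesothelial genes were high in normal lung 1, at 2.388 CPM. The low Met and the high Erbb3 were thus in the metastasis library with the highest fibroblast sum, and the high Insr in the one with the highest platelet sum; their part in those values was not tested.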

How the results depend on the processing

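The calls of Met and Egfr held under all 26 other settings of the fit. The number of receptors called higher was 2 in libraries 1 and 2 alone and 3 to 4 with each library left out in turn. The number called lower was 2 with no filter on low counts, in both filtered FPKM fits, under the replicate block and in libraries 3 to 5 alone, with Fgfr3 as the second in all of these but the last (-2.30, adjusted p = 0.00217 under the block), 1 to 2 with a library left out, and 0 with pan-endothelial scaling. Over all genes, 2380 rose and 1663 fell by DESeq2, 869 and 453 at a threshold of 0.01, 487 and 201 in libraries 1 and 2 alone, 7087 and 19 with pan-endothelial scaling, and 1302 to 1440 and 792 to 1114 with a library left out; without metastases 4 and 5, 527 fell. In the pathway lists 29 rose by DESeq2, 10 rose and 6 fell at 0.01, 7 and 5 in libraries 1 and 2 alone, 49 and 0 with pan-endothelial scaling, and 14 to 18 and 7 to 12 with a library left out. RLE scaling and library totals moved the median log2 fold change by 0.08 and 0.25.

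With pan-endothelial scaling, directions turned for Fgfr3 (0.87), Erbb2 (2.27), Igf1r (2.15), Insr (1.36), Fgf1 (0.056), Pros1 (1.93), Igfbp7 (0.096), Nrp1 (0.19), Grb14 (0.060), Pik3cb (0.84), Lrig2 (1.20) and Egr1 (0.92). Igf2r turned to -0.064 without metastasis 2 (up to 0.88 with another library left out) and -0.66 in libraries 3 to 5 alone, and Fgf11 to -0.0076 without normal lung 4 (up to 1.09) and -0.012 without metastases 4 and 5. The cause was not tested.

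Deviations from the group means correlated at 0.000682 to 0.142 between same-numbered libraries. Metastases 2 and 4 were closest to the normal lung library of their own number, and metastases 1, 3 and 5 were not. These values cannot decide whether the numbers pair the libraries, and the labels do not say. Under the replicate block, a sign-flip test whose smallest p is 0.0625, the differences of 6.91 (Fgfr1/Fgfr2), 4.74 (Fgfr1/Fgfr3), -2.17 (Fgfr2/Fgfr3) and 7.11 (Egfr/Erbb2) had an exact adjusted p of 0.125 each. With a library left out, the differences were 6.40 to 7.50, 4.17 to 5.49, -2.63 to -1.68 and 6.57 to 7.64 for these 4 pairs, 0.33 to 0.98 for Igf1r/Insr, 2.40 to 5.08 for Egfr/Erbb3, -4.64 to -2.48 for Erbb2/Erbb3 and -1.62 to -0.78 for Axl/Met. Fgfr1/Fgfr3 was 4.36 without metastases 4 and 5 (exact adjusted p = 0.0571). Egfr/Erbb3 was 4.73 with FPKM + 0.1 and 4.38 with 5 added to counts (exact adjusted p = 0.0317 and 0.0254), and 0.10 in libraries 1 and 2 alone, where Igf1r/Insr was -0.45 and Erbb2/Erbb3 -8.61; the last was 0.20 in libraries 3 to 5 alone. Erbb3, with 0 to 194 counts in a library, was too low to be tested.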
